A study of Mus musculus with 2 samples.

Results

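The replication-dependent histone genes supply the core histones H2A, H2B, H3 and H4 and the linker histone H1 to newly copied DNA. They were taken as the protein-coding mouse genes whose GENCODE M21 symbol starts with Hist1h, Hist2h, Hist3h or Hist4h. GENCODE M21 lists 67 such genes, and 64 of them had a row among the 43346 gene rows of the deposited tables. The study measured whole kidney of C57BL/6J mice, an inbred laboratory strain, at 8 weeks of age. There was 1 group, adult kidney, with 2 libraries labelled as biological replicates, each from tissue pooled from male and female littermates and with no treatment named in the labels. Both libraries carry 1 donor label, so SDs (n = 2) and tests measure only the spread between these libraries, which may be technical. Per the labels the RNA was polyadenylated, over 200 nt long and cleared of ribosomal RNA, and it was read as stranded pairs of 76 nt.

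Most replication-dependent histone mRNAs do not carry a poly(A) tail. They end just past a conserved stem-loop, which binds the stem-loop binding protein Slbp. They are cut past the stem-loop by a machinery that includes the U7 small nuclear ribonucleoprotein. Their synthesis is tied to S phase, and the variant histones made outside S phase come from other genes whose mRNAs are polyadenylated. Some genes of the clustered families also make polyadenylated mRNA, in particular in resting and differentiated cells. The levels below are those of RNA labelled as polyadenylated, and histone RNA without a tail was not analysed here.

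The stem-loop is the element that sets these mRNAs apart, so it was looked for in the GENCODE M21 transcript of each gene, after the stop codon, on the transcript strand, as GG, 3 bases of any kind, TT, any base, T, any base, A, 3 bases of any kind and CC, with at least 5 of the 6 stem positions paired (G-T pairs allowed). It was found in 44 of 64 genes, starting 22 to 59 bases after the stop codon (median 32.5). The following lines show it for genes that differ in level, histone type or 3 prime end, with the 16 bases of the stem-loop in capitals and 5 bases on each side (GRCm38).
Hist2h2aa1, chr3:96246027-96246052, plus strand: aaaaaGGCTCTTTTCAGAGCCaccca
Hist1h1c, chr13:23739507-23739532, plus strand: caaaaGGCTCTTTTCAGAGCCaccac
Hist3h2a, chr11:58955167-58955192, plus strand: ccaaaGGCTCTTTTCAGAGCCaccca
Hist1h4i, chr13:22040961-22040986, minus strand: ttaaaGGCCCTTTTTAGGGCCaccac
Hist1h2bk, chr13:22036295-22036320, plus strand: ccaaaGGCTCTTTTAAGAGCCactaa
Hist1h4b, chr13:23757361-23757386, plus strand: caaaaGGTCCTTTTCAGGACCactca
Hist1h4a, chr13:23760795-23760820, minus strand: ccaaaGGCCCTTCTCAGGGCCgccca

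The 44 stem-loops had 8 distinct sequences. The form of Hist2h2aa1 was shared by 24 genes of types H1, H2A, H2B and H3, and by 0 H4 genes. The form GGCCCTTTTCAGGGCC was found in 7 genes, all of them H4. The form of Hist1h2bk was found in 6 genes, that of Hist1h4i in 2, that of Hist1h4b in 2 and that of Hist1h4a in 1. Among genes with a protein-coding M21 transcript of at least 75 bases after the stop codon (1 transcript per gene), 36 of 41 histone genes (87.8%) held the motif in the first 75 bases, against 10 of 20282 other protein-coding genes (0.0493%). The motif was chosen after its sequences were seen, so these shares describe the pattern and do not test it. No stem-loop was found in 20 genes. The models of 14 of these end fewer than 20 bases after the stop codon. The rest were Hist1h1a, Hist1h2bc, Hist1h2bq, Hist1h2br, Hist2h2be and Hist2h3b. A missing match says only that these letters are not in the model's sequence.

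The polyadenylation motifs AATAAA and ATTAAA were looked for in the last 50 bases of the same transcripts, on the transcript strand. Of the same 41 histone genes, 17 (41.5%) held either motif there, against 15195 of 20282 other genes (74.9%). The 4 lines below show the motif in capitals at the end of models that run well past the stem-loop, or that have none (Hist2h2be), with 10 bases on each side (GRCm38).
Hist1h1c, chr13:23740332-23740357, plus strand: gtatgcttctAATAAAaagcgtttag
Hist3h2a, chr11:58956787-58956812, plus strand: gtatatgcccAATAAAataagagtac
Hist1h4i, chr13:22040641-22040666, minus strand: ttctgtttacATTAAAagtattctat
Hist2h2be, chr3:96223707-96223732, plus strand: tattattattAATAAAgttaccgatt

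Deposited gene counts summed to 67252609 in replicate 1 and 87330097 in replicate 2, and the histone genes held 0.0616% and 0.0485% of them. The kidney tubule list was present at 1 TPM or more for 6 of 6 genes, led by the phosphate transporter Slc34a1 (5821 and 4317 TPM) and by Umod (3204 and 1908 TPM), the uromodulin gene of the thick ascending limb. TPM is the deposited level per length, scaled to a common sum in each library. Markers of other tissues differed between the libraries. The 6 skeletal muscle genes summed to 3.18 TPM in replicate 1 and 751 TPM in replicate 2, the 10 lymphocyte genes to 22.9 and 110 TPM, and the 5 adrenal cortex genes to 51.9 and 0.73 TPM. The 5 red blood cell genes summed to 7200 and 7695 TPM.

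Histone RNA in this polyadenylated fraction was dominated by a few genes. Of the 64 genes, 26 reached 1 TPM in both libraries and are called detected, against 30.2% of all gene rows and 57.2% of protein-coding ones. Replicate 1 had 37 genes at that level and replicate 2 had 27, so 12 genes reached it in a single library. Of the genes not called detected, the highest by mean level were Hist1h2ah (2.60 and 0.44 TPM), Hist1h3i (2.23 and 0.65 TPM) and Hist1h4f (1.90 and 0.96 TPM). The summed level was 1515 TPM in replicate 1 and 1053 TPM in replicate 2. The 5 genes with the highest mean level, Hist1h2bc, Hist2h2aa1, Hist2h2aa2, Hist1h1c and Hist1h4h, held 88.1% and 88.4% of it. On GRCm38 these genes lie on chromosome 13 at 23684199 to 23692908 (Hist1h2bc), 23738808 to 23740367 (Hist1h1c) and 23531050 to 23531519 (Hist1h4h), and on chromosome 3 at 96245497 to 96246082 (Hist2h2aa1) and 96239749 to 96240276 (Hist2h2aa2). All but Hist1h2bc have a single exon in GENCODE M21. The median gene had 1.24 and 0.735 TPM. In whole tissue, fewer cells of a type and less RNA per cell cannot be told apart. Across the 64 genes, log2(TPM + 1) of the libraries had a Pearson r of 0.981 and a Spearman rho of 0.921, over genes that share sequence and are not independent.

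**Figure D1:**
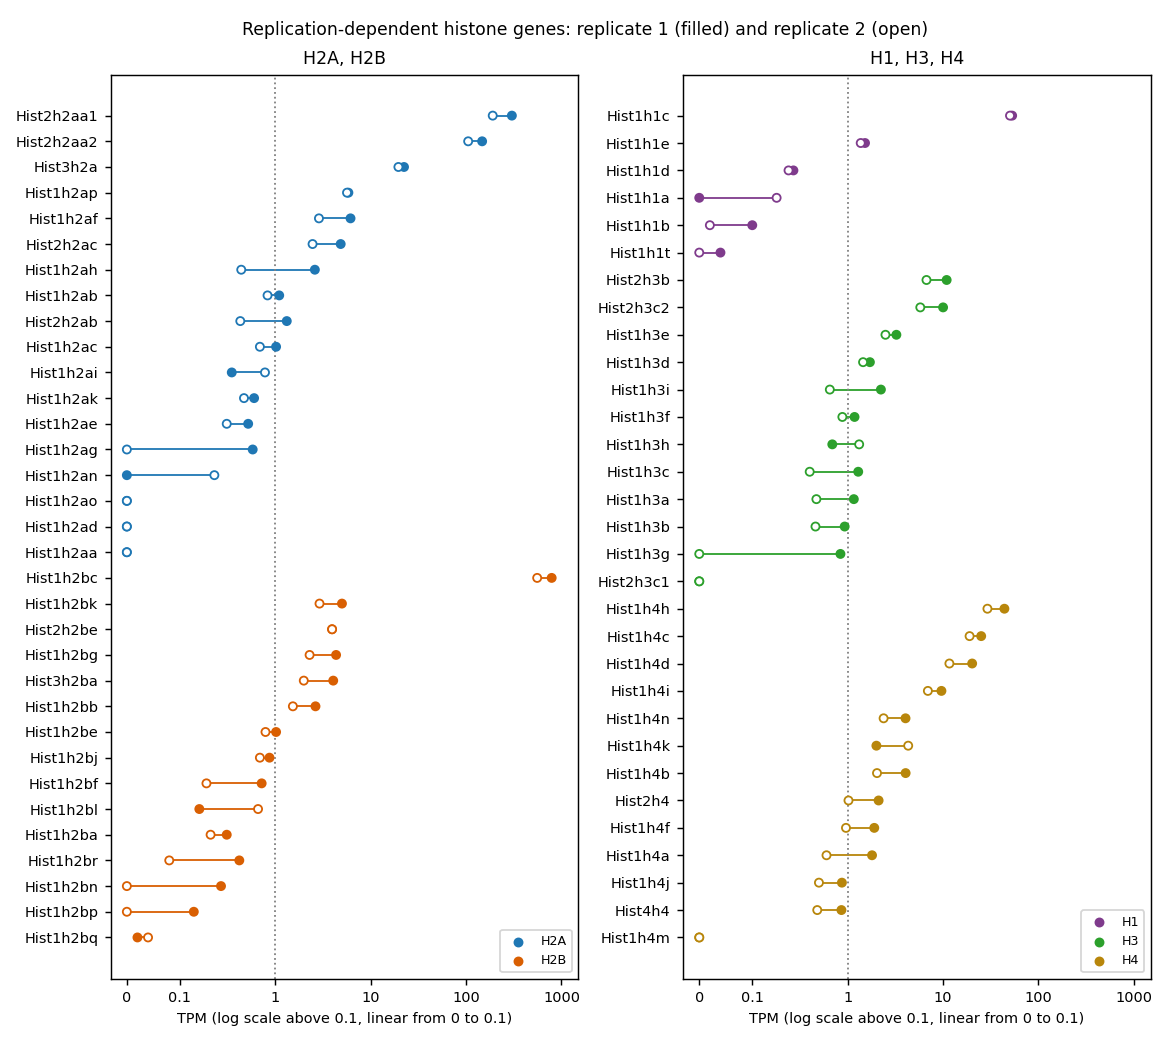
TPM of the 64 histone genes (horizontal axis, log scale above 0.1 and linear below) by gene (rows, ordered by mean level within a histone type), with replicate 1 as filled and replicate 2 as open points and a dotted line at 1 TPM. Hist1h2bc lies at 789 and 556 TPM, and most genes lie near or below 1 TPM.

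H2B and H2A pair into the dimers that flank the H3-H4 tetramer in a nucleosome. Hist1h2bc, which encodes an H2B, was the highest gene, with 789 TPM in replicate 1 and 556 TPM in replicate 2 (673 ± 165, SD, n = 2) from 22491 and 22384 expected counts. It made up 52.1% and 52.8% of the histone TPM and 97.2% of the H2B level. The lower of its values was above both values of every other histone gene. The other detected H2B genes were far below it. Hist1h2bk had 5 and 2.91 TPM, Hist2h2be 3.94 TPM in each library, Hist1h2bg 4.34 and 2.29 TPM, Hist3h2ba 4.05 and 1.99 TPM, and Hist1h2bb 2.64 and 1.53 TPM. These ranges overlap, apart from Hist1h2bb, whose values lie below those of Hist1h2bk and Hist2h2be. The 9 remaining H2B genes with a row had mean levels of 0.03 to 0.905 TPM, with Hist1h2ba, the H2B of the male germ line, at 3 counts in each library.

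The H2A genes summed to 497 and 330 TPM, 32.8% and 31.3% of the histone level. Hist2h2aa1 had 302 and 190 TPM, and its neighbour Hist2h2aa2 had 147 and 105 TPM, so the values of these genes do not overlap. Their sequences are too alike for most reads to tell them apart, so the split rests on the deposited estimate. All stretches of 76 bases of Hist2h2aa2 (100%) also occur in Hist2h2aa1, and 88.8% of those of Hist2h2aa1 were shared with Gm20634, an overlapping processed transcript with 6.96 and 6.06 TPM. Hist3h2a followed with 22.4 and 19.5 TPM, then Hist1h2ap (5.84 and 5.65 TPM), Hist1h2af (6.15 and 2.87 TPM) and Hist2h2ac (4.85 and 2.46 TPM). For Hist3h2a, 30.6% of its stretches also occur in Trim17, an overlapping gene with 0.37 and 0.22 TPM. The other 12 H2A genes had mean levels of 0 to 1.52 TPM. Of these, Hist1h2aa, a germ-line H2A, and Hist1h2ad and Hist1h2ao were listed at 0 counts in each library. That is no firm ceiling for genes with near-identical copies, since the deposited posterior mean count of Hist1h2ad was 4.31 in replicate 1 and 3.23 in replicate 2.

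H4 had the largest share of its genes detected, 8 of 13, and summed to 116 and 79.0 TPM. Hist1h4h led with 43.9 and 29.2 TPM, above both values of Hist1h4c at 25.1 and 19.0 TPM. Hist1h4d had 20.2 and 11.7 TPM, a range that overlaps that of Hist1h4c. Hist1h4i had 9.61 and 6.93 TPM. Lower levels were measured for Hist1h4n (4.04 and 2.38 TPM), Hist1h4k (2.00 and 4.31 TPM), Hist1h4b (4.05 and 2.03 TPM) and Hist2h4 (2.11 and 1.02 TPM). All 13 H4 genes encode the same protein of 103 amino acids in GENCODE M21, and their mean levels ran from 0 TPM (Hist1h4m) to 36.6 TPM (Hist1h4h). The only gene of the Hist4 locus, Hist4h4, had 0.86 and 0.48 TPM.

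H3 genes, which encode only 2 distinct proteins among 12 genes, summed to 34.2 and 20.6 TPM. Hist2h3b had 10.9 and 6.70 TPM and Hist2h3c2 had 10 and 5.77 TPM, and their ranges overlap. Of their 76-base stretches, 78.5% (Hist2h3b) and 62.5% (Hist2h3c2) also occur in Gm20634, so these levels rest on the deposited estimate. Hist1h3e (3.24 and 2.49 TPM) and Hist1h3d (1.71 and 1.45 TPM) were the other detected H3 genes. Hist2h3c1 had 0 counts in both libraries, and each of its 76-base stretches also occurs in Gm20634. The other 7 H3 genes lay between 0.42 and 1.44 TPM on average.

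Among the 6 linker histone H1 genes, Hist1h1c stood alone with 53.0 and 50.3 TPM (51.6 ± 1.89, SD, n = 2), 96.5% of the H1 level. Hist1h1e was detected at 1.52 and 1.37 TPM. Hist1h1a, Hist1h1b, Hist1h1d and Hist1h1t, the last a linker histone of the testis, had means of 0.02 to 0.255 TPM. H1 RNA summed to 54.9 and 52.1 TPM. Linker histones bind the DNA where it enters and leaves the nucleosome.

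By cluster, the Hist1 genes held 66.4% and 67.9% of the histone level (17 of 52 detected), the Hist2 genes 31.8% and 29.98% (7 of 9), the Hist3 genes 1.74% and 2.04% (2 of 2) and Hist4h4 0.0568% and 0.0456%. Hist1 lies on chromosome 13 in 2 blocks. The block at 21715763 to 22043676 (GRCm38) has 22 genes with a row, of which 5 were detected, and summed to 36.4 and 28.1 TPM. The block at 23531050 to 23934851 has 30 such genes, of which 12 were detected, and summed to 969 and 688 TPM, most of it from Hist1h2bc.

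**Figure D2:**
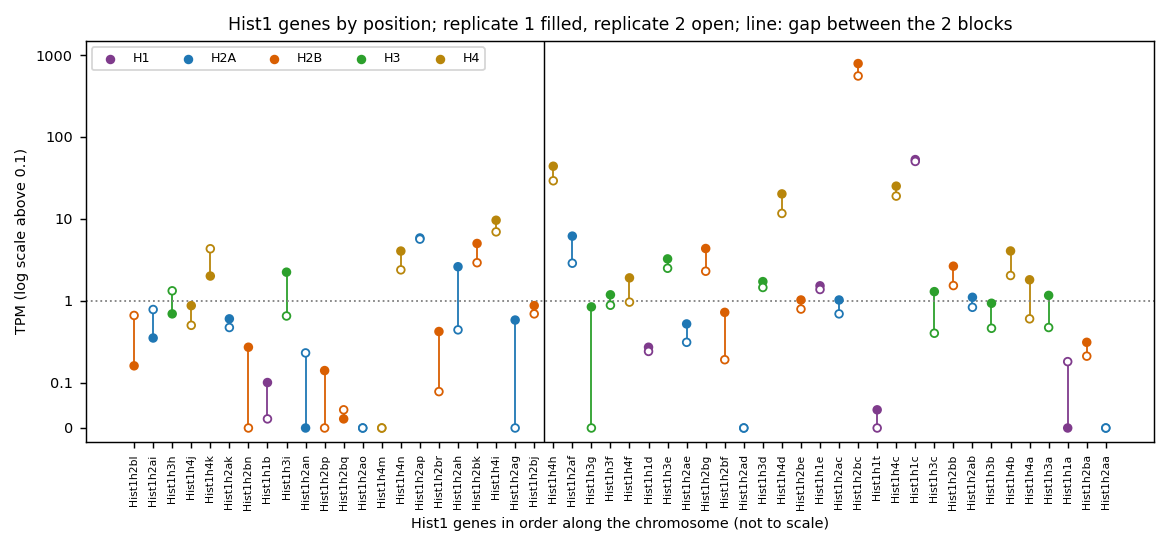
TPM (vertical axis, log scale above 0.1 and linear below) of the Hist1 genes in their order along the chromosome, coloured by histone type, with replicate 1 filled, replicate 2 open, a dotted line at 1 TPM and a vertical line at the gap between the blocks. High and low genes lie side by side, with Hist1h2bc at 789 and 556 TPM next to Hist1h2ac at 1.02 and 0.69 TPM.

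Many H2A and H2B genes are arranged head to head with a short shared promoter. There were 12 such pairs with start sites within 500 bases, all with rows for both genes. Both genes were detected in 1 pair, Hist2h2ac with Hist2h2be (239 bases apart), 1 gene was detected in 4 pairs, and neither in 7. All pairs but that one and Hist1h2ba with Hist1h2aa hold a gene whose count was uncertain by the rule given next. Hist1h2bc and Hist1h2ac start 251 bases apart, with a mean TPM ratio of 787, although the counts of Hist1h2ac (14.8 and 14.4) were uncertain. The deposited model of Hist1h2ac has 476 bases, against 2482 in GENCODE M21, and that of Hist1h2bc has 736 against 1156. The ratio thus covers only the deposited part of each transcript.

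Near-identical copies limit many of these values. A gene was called uncertain where the deposited SD of its estimated count was above 10% of the count in a library, which held for 26 of 64 genes. Of the detected genes these were Hist1h4n and Hist1h4k. The rule does not mark every gene with shared sequence. Among genes not called uncertain, the share of unique 76-base stretches was 0% for Hist2h2aa2, 7.37% for Hist1h2ap, 11.2% for Hist2h2aa1 and 21.5% for Hist2h3b. The median share of 76-base stretches unique to a gene was 58.0% over the 64 genes, 73.4% for the 38 other genes and 27.8% for the uncertain ones. Gene length matters as well. One TPM stood for 5.75 and 8.77 counts of Hist1h4k, whose model of 312 bases ends at the stop codon, and for 144 and 199 counts of Hist4h4. Thus Hist2h2be had 510 and 710 expected counts at 3.94 TPM, while Hist1h4d had 204 and 172 counts at 20.2 and 11.7 TPM. By expected counts, the 5 highest genes held 90.5% of the histone total, and Hist3h2a (2329 and 2831 counts) took the place of Hist1h4h (632 and 605 counts).

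The ends of the deposited transcript models were set against the stem-loop for transcripts whose version length equals that of GENCODE M21. These ends are those of the annotation, not measured ends of the RNA. Models that end within 50 bases of the stem-loop (15 genes) held 31.3% and 29.6% of the histone transcript TPM, nearly all of it Hist2h2aa1 and Hist2h2aa2, and 0 of these models hold a polyadenylation motif in the last 50 bases. Models that run further (12 genes) held 7.44% and 8.74%. Of these 12 models, 8 hold a polyadenylation motif in the last 50 bases. Among the 8 are Hist1h1c, which runs 840 bases past its stem-loop, Hist3h2a (1643 bases past it) and Hist1h4i (330 bases past it). Each of these ends with the motif printed above. Models without a stem-loop held 2.13% and 2.24%. The remaining 59.1% and 59.4% lay in transcripts with another model in M21, mostly Hist1h2bc. Some of their deposited models are much shorter than those of M21, such as Hist1h1d with 744 against 7425 bases. Levels of such genes cover only the deposited part.

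Among transcripts with an equal model and a stem-loop, those that end more than 50 bases past it held 19.2% and 22.8% of the TPM (21 ± 2.55, SD, n = 2). This share rests on Hist2h2aa1 and Hist2h2aa2, and without them it was 83.4%. In expected counts it was 48.2%, and with a limit of 20 bases it was 98.6%, since the model of Hist2h2aa1 ends 35 bases past its stem-loop.

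Hist1h2bc has a spliced 3 prime end in the annotation. Its M21 transcript (chromosome 13, 23684199 to 23692908, plus strand) has 2 exons joined over an intron of 7554 bases at 23684622 to 23692175. The transcript sequence after the stop codon is 742 bases long and holds no stem-loop. It holds 1 polyadenylation motif (AATAAA or ATTAAA), which starts 296 bases after the stop codon. The deposited junction table is on the older build mm9 and pools both libraries. It lists exactly 1 junction of 7554 bases on the plus strand of chromosome 13, at 23776491 to 23784044 (mm9), with 8727 counts. Only 654 of 492582 junctions (0.133%) had that many counts or more, and the median junction had 2. The annotated Hist1h2be intron of 34945 bases matched 1 junction with 1 count, and the start of the Hist1h2bc junction lay 98651 bases from that of Hist1h2be in both builds. The junctions were matched by length, strand and spacing, and no coordinate was converted. A single match by length and strand alone can be false. The Hist1h2bp intron of 1132 bases, at 21787892 on GRCm38, also matched 1 junction, but at 73930240 (mm9), with 994 counts.

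Between the libraries, histone counts were lower in replicate 2 than in replicate 1 for most genes. Of 50 genes with 10 or more counts in sum, 41 (82.0%) had a lower scaled count in replicate 2, against 48.1% of all 18723 genes tested. The median log2 ratio of replicate 2 over replicate 1 was -0.51 for the histone genes and 0.02 for all genes. By type, 11 of 13 H2A, 9 of 11 H2B, 10 of 11 H3 and 11 of 12 H4 genes were lower. Of the 3 H1 genes tested, 0 were lower. The summed count of the 64 genes was 41450 in replicate 1 and 42373 in replicate 2, a scaled ratio of 0.830. Among the 33 tested genes that were not uncertain, 29 were lower in replicate 2, with a median log2 ratio of -0.46. In TPM, 24 of 26 detected genes (92.3%) were lower, against 72.1% of all 13108 detected genes, with median log2 ratios of -0.63 and -0.19. By scaled counts, the 6 kidney tubule genes were all lower in replicate 2 too, with a median log2 ratio of -0.41. Of the 5 red blood cell genes, 0 were lower. A lower count in replicate 2 was thus not particular to the histone genes. The libraries also differed in the skeletal muscle, lymphocyte and adrenal cortex markers given above. What part these differences had in that of the histone genes was not tested.

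The most abundant genes differed by less than 2-fold. Hist1h2bc had a scaled ratio of 0.808 (95% exact binomial interval 0.793 to 0.823, counting error only) and Hist2h2aa1 a ratio of 0.728 (0.702 to 0.755). Hist1h4h was at 0.777 (0.694 to 0.870). Hist3h2a was at 0.986 (0.933 to 1.04), Hist2h2be at 1.13 (1.01 to 1.27) and Hist1h1c at 1.075 (1.03 to 1.12). These 3 genes have long models with a polyadenylation motif at the end. The 6 other genes with an equal model and a motif in the last 50 bases were Hist1h4a, Hist1h4i, Hist1h4j, Hist2h3c1, Hist2h4 and Hist3h2ba. They were taken whatever their length, down to 539 bases for Hist1h4a. With those included, 6 of the 8 tested genes were lower in replicate 2. Of 25 tested genes with an equal model and no such motif, 20 were lower. Long models were among the lower ones too. Hist2h4, with a model of 1630 bases against 1560 for Hist1h1c, was at 0.549 (0.427 to 0.705).

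A difference of at least 2-fold with a Benjamini-Hochberg adjusted p below 0.05, from a two-sided exact binomial test on the reads of these 2 libraries, was found for 8 of 50 histone genes (16%), against 8.21% of all genes tested. It compares the libraries, not conditions, and takes estimated counts as exact. In replicate 2, 7 genes were lower (background 2.59%) and 1 was higher (background 5.62%). Hist1h2ah had 28 and 7 counts (log2 ratio -2.30), Hist1h2br 24 and 7 (-2.08), Hist1h3i 25 and 11 (-1.49), Hist1h3c 20 and 9 (-1.45), Hist1h4a 32 and 15 (-1.39) and Hist2h2ab 17 and 8 (-1.39). Hist1h3g had 10 and 0 counts, with a 95% exact binomial interval of 0 to 0.362 for the scaled ratio (counting error only). For Hist1h2br, another of its M21 transcripts sat under a different gene identifier with 0 and 6.08 counts, which are not part of the 24 and 7. Hist1h4k had 12 and 38 counts, a log2 ratio of 1.36. All 8 have few counts, and 6 of them were uncertain. With at least 50 counts in sum, Hist1h4k alone passed. It is among the uncertain genes, and its expected counts of 11.54 and 37.81 reached that limit only by rounding. By the adjusted p alone, 23 genes (46.0%) differed, against 57.5% of all genes tested, Hist1h2bc (adjusted p = 1.66e-111, exact binomial test) and Hist2h2aa1 (8.67e-65) among them.

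**Figure D3:**
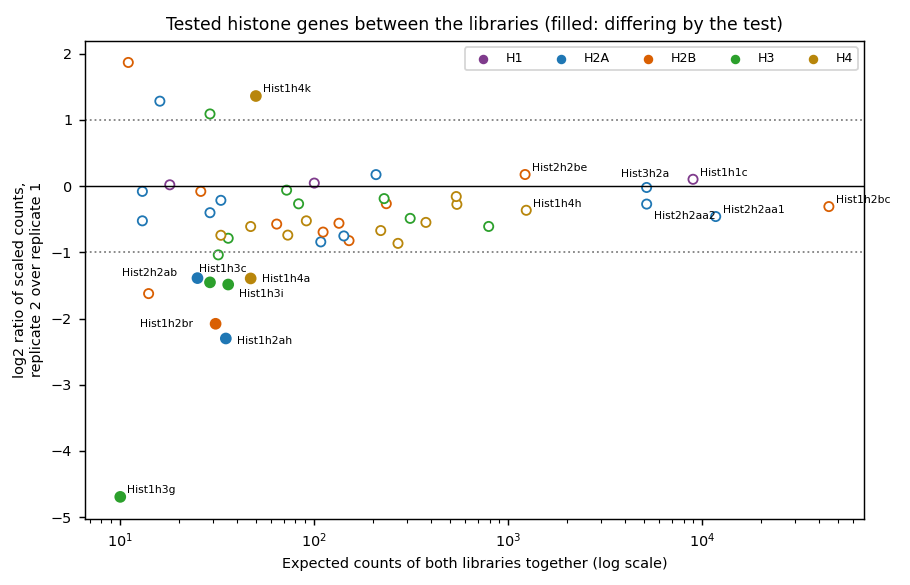
The log2 ratio of scaled counts, replicate 2 over replicate 1 (vertical axis), against the expected counts of both libraries together (horizontal axis, log scale) for the 50 tested histone genes, with the 8 that differed by the test as filled points and dotted lines at 2-fold (Hist1h3g, at 0 in replicate 2, is placed with a prior count of 0.5). The filled points have 50 counts or fewer in sum, and 41 of the points lie below 0.

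A list of variant histone genes, named replication-independent here, was compared as the counterpart. The timing of their expression in the cell cycle was not measured. All 11 replication-independent histone genes on the list were detected, with a median of 65.1 and 62.6 TPM. The highest were the H2A variant gene H2afz (336 and 239 TPM), the H3.3 genes H3f3a (250 and 231 TPM) and H3f3b (104 and 98.7 TPM), and the H2A gene H2afj (119 and 65.6 TPM). They summed to 1056 and 844 TPM. The replication-dependent genes thus had 1.44 and 1.25 times their summed TPM (1.34 ± 0.132, SD, n = 2), but 0.794 times in expected counts, and most of it came from Hist1h2bc. None of the 11 differed between the libraries at 2-fold and adjusted p below 0.05 (exact binomial test), against 8.21% of all genes tested. By the adjusted p alone 9 of 11 differed, against 57.5% of all genes tested, and by the unadjusted p 9. In replicate 2, 5 of 11 were lower, with a median log2 ratio of 0.11.

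Of 33 genes of S phase and mitosis, 22 were detected, with a median of 2.50 and 2.38 TPM. The highest were Pcna (27.6 and 25.2 TPM), the sliding clamp of DNA polymerase, Tyms (14.2 and 16.9 TPM), which makes thymidylate, the helicase subunit Mcm7 (11.95 and 10.9 TPM) and the thymidine kinase Tk1 (11.9 and 10.4 TPM). The proliferation marker Mki67 had 0.14 and 0.19 TPM and Top2a 0.86 and 0.48 TPM. Of the 33, 1 gene, Ccne1, differed between the libraries at 2-fold and adjusted p below 0.05 (30 and 85 counts, higher in replicate 2). Over all genes tested the share at these limits was 8.21%. By the adjusted p alone 11 of the 33 differed, against 57.5% of all genes tested, and by the unadjusted p 13. In replicate 2, 11 of the 33 were lower, with a median log2 ratio of 0.09.

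Factors for histone mRNA transcription and 3 prime end cutting were detected for 15 of 17 genes with a row. The highest were the scaffold Sympk (53.4 and 40.0 TPM), the U7 particle protein Lsm10 (28.2 and 24.2 TPM), Srrt (21.5 and 19.1 TPM) and the decay helicase Upf1 (19.3 and 17.5 TPM). Slbp had 10.9 and 10.6 TPM, and Npat, the coactivator of histone genes, 1.46 and 1.36 TPM. All 14 cleavage and polyadenylation genes were detected, led by Pabpn1 (79.9 and 75.1 TPM), Papola (39.9 and 38.2 TPM), Cpsf1 (29.1 and 22.4 TPM) and Cstf1 (29.0 and 20.7 TPM). All 12 histone chaperone genes were detected too, led by Daxx (26.2 and 23.2 TPM), Hira (26.7 and 21.1 TPM), Atrx (17.8 and 13.8 TPM) and Cabin1 (15.5 and 11.6 TPM). In these 3 lists 0 genes differed between the libraries at 2-fold with an adjusted p below 0.05 (exact binomial test). Over all genes tested the share was 8.21%, and the lists are short. By the adjusted p alone, 7 of 17, 10 of 14 and 6 of 12 genes differed, against 57.5% of all genes tested. By the unadjusted p, 9, 12 and 6 differed.

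**Figure D4:**
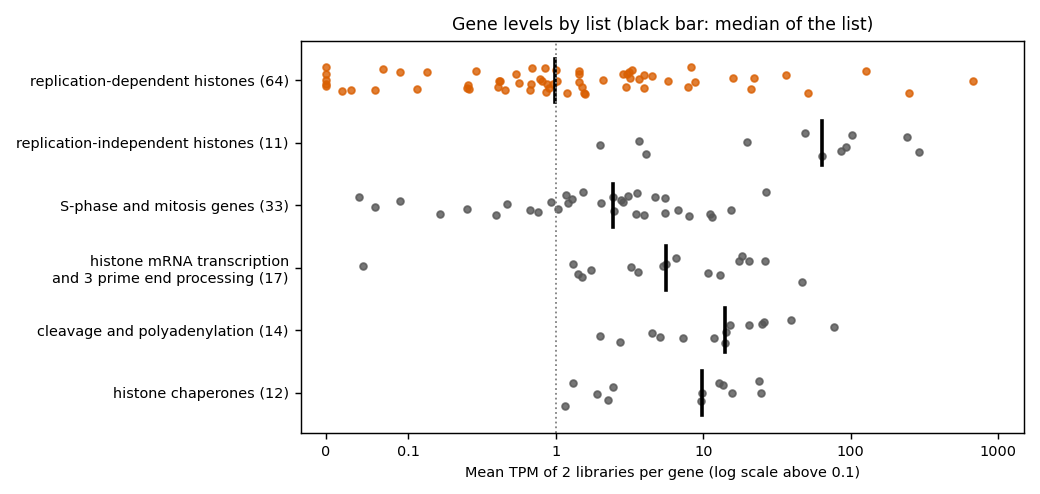
Mean TPM of both libraries per gene (horizontal axis, log scale above 0.1 and linear below) for the 64 replication-dependent histone genes and the 5 lists they were compared with, with a black bar at each list's median and a dotted line at 1 TPM. The replication-dependent genes span from 0 to 673 TPM around a median near 1, while all 11 replication-independent genes lie above 1 TPM.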

How the data were processed

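Whole kidney was measured by RNA sequencing in 2 libraries of 1 group. The authors deposited an expected count, TPM and FPKM per gene and transcript, on mm10 with annotation M4 per the deposited text records; posterior means and SDs are deposited signal values of the same estimate, and the share of each isoform is deposited in percent per the file headers. The aligner and quantifier: not given in the sources used here. A deposited junction count (mm9) is the sum of a pair of columns that no source assigns to a replicate. Symbols, positions and sequences came from GENCODE M21. Detected meant 1 TPM or more in both libraries. Expected counts were rounded, scaled by TMM factors (edgeR 4.0.16, R 4.3.3), and tested by exact binomial tests (SciPy 1.17.1) with Benjamini-Hochberg adjustment over all genes with 10 or more counts in sum; a prior count of 0.5 served genes at 0. A count of 0 in a gene without near-identical copies was read as up to 3 counts per library (0.0446 and 0.0344 CPM), for counting error only. DESeq2 1.42.0 size factors were among the alternatives. The stem-loop motif was chosen after its sequences were seen. Members, lists and tests were chosen with earlier results of these data known. All detected members, all members that differed, those at 0, and the 4 highest genes of each compared list were named; Slbp, Npat, Mki67, Top2a, Ccne1 and genes named for their sequence, position or tissue were named outside that rule.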

Additional observations from a re-analysis of the deposited data

Results flagged for a closer look

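A few histone reads lay outside the 64 rows, in features for which a count above 3 was listed. The pseudogene Hist1h2al had 6.64 expected counts in replicate 1 (2.26 in replicate 2), and the pseudogene Hist3h2bb-ps had 11.79 in replicate 2 (0 in replicate 1). The third pseudogene, Hist1h2aj, was at 0 in both. Transcripts that GENCODE M21 assigns to 4 of the genes sat under other gene identifiers in the deposited table. That of Hist2h2bb had 7.96 counts (0.84 TPM) in replicate 1 and 8.89 counts (0.64 TPM) in replicate 2. One of Hist1h2bq had 8.63 counts (0.88 TPM) and 9.82 counts (0.68 TPM), against 0.02 and 0.04 TPM in its own row. One of Hist1h2br had 0 and 6.08 counts (0.44 TPM in replicate 2), and one of Hist2h3c1 was at 0 in both. Hist1h2bm and Hist1h2bh had no row in the tables used here.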

How the results depend on the processing

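Of 43 alternative values, 33 stayed within the spread between replicates or, for counts of genes, within 1.5 times. The 26 detected histone genes became 36 at 0.5 TPM, 21 at 2 TPM, 25 by FPKM and 28 by posterior mean TPM, and 27 to 37 with either replicate left out. The share of the 5 highest genes was 90.5% in expected counts, 88.0% by posterior mean TPM and 89.5% over genes whose counts are not uncertain. The share of transcripts ending past the stem-loop (21%) was 48.2% in expected counts, 98.6% with a limit of 20 bases, 83.4% without Hist2h2aa1 and Hist2h2aa2 and 26.2% with M21 models for all transcripts, the last 2 chosen after seeing the data. Of 50 tested genes, 1 differed between libraries with a minimum of 50 counts, which it reached only by rounding, and 23 differed without the fold threshold. The ratio to replication-independent genes was 0.794 in expected counts, where longer genes weigh more, and 1.25 to 1.44 with either replicate left out. No paired analysis was possible because there is 1 group. Copies that share sequence and genes with few counts limit single values. With 2 libraries of 1 donor label, no spread between animals was measured.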
